A study of Caenorhabditis elegans with 9 samples.

Results

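The furrow collagens of *C. elegans* are 6 cuticle collagens, *dpy-2*, *dpy-3*, *dpy-7*, *dpy-8*, *dpy-9* and *dpy-10*, grouped because animals that lack any of them lose the ring-shaped furrows of the cuticle. Their entries were picked by gene name from a table of 40313 entries, and each of the 6 had an entry of its own that was not joined with a neighbouring gene. RNA was sequenced from whole gravid adult hermaphrodites of 3 genotypes, with 3 libraries each. These were *daf-1* mutants with the allele *m40*, *daf-1*; *daf-3* mutants that carry *m40* together with the *daf-3* allele *mgDf90*, and wild-type N2. Each genotype was 1 strain, the double mutant came from crosses, and each library came from a pooled population. All worms were synchronized as L1 larvae, fed *E. coli* NA22, raised at 16 °C until L4 larvae and afterwards kept at 25 °C, for 25 h by the sample labels and 1 h less by the methods. The study treats replicates 1, 2 and 3 as batches that each hold all 3 genotypes.

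*daf-1* encodes the type I receptor of the DAF-7 TGFβ pathway, and *daf-3* the co-SMAD that acts downstream of it. Cuticle collagens are made by the epidermis, cut and cross-linked after secretion, and laid down anew before each molt. The furrow collagens are transcribed early in each of these rounds and form the circumferential bands that mark the furrows, and their loss makes animals short and stout, the Dumpy phenotype. Adults no longer molt, but gravid hermaphrodites hold embryos, and late embryos make the cuticle of the first larval stage. RNA from whole gravid worms therefore includes RNA of embryos. A lower value in such RNA can come from fewer cells that express a gene or from less RNA per cell, and these cannot be told apart here.

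Values are FPKM, fragments per kilobase of transcript scaled to the mapped fragments of the library, which correct for gene length and library size. Library totals ranged between 748170 and 959313 FPKM, with 16063 to 17196 entries above 0, and the depth behind a value cannot be read from FPKM. *daf-3* was listed at 0, 0.0147 and 0 FPKM in *daf-1*; *daf-3*, against 18.8 to 22.5 FPKM in the other 6 libraries, and *daf-1* had 12.8 to 14.5 FPKM in both mutants, against 21.6 to 23.7 FPKM in N2. Replicate 3 of *daf-1*; *daf-3* stood apart: its 10 highest entries took 10.7% of its FPKM, against 4.83% to 6.57% in the other 8 libraries. The study left this library out, so tests between genotypes used 8 libraries, and results are given with it as well. Markers of yolk and intestine, oocytes, early embryos, muscle and epidermis were above 0 in all libraries, and of the sperm markers only *peel-1* was listed at 0 in some.

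The 6 genes lie at 5 places in the genome (build WBcel235). *dpy-2* (WBGene00001064; chromosome II, 6714292 to 6715971, plus strand, 5 exons) and *dpy-10* (WBGene00001072; chromosome II, 6710149 to 6712227, minus strand, 5 exons) lie close together and point away from each other, with 2064 bases between them. In or reaching into these bases are 4 annotated genes, the protein-coding *T14B4.19* and the noncoding *T14B4.13*, *T14B4.14* and *T14B4.15*. *dpy-3* (WBGene00001065; 2144605 to 2145647, 2 exons), *dpy-8* (WBGene00001070; 5148804 to 5150476, 4 exons) and *dpy-7* (WBGene00001069; 7536467 to 7537792, 2 exons) lie apart on the minus strand of chromosome X. *dpy-9* (WBGene00001071; 257403 to 259204, minus strand, 4 exons) lies on chromosome IV, 119321 bases from the mutated *daf-1* gene. The coding sequences range between 906 bases in *dpy-3* and 1356 bases in *dpy-8*. Overlapping genes limit how exactly reads can be assigned. Of the 1513 exonic bases of *dpy-8*, 109 overlap *C31H2.14* on the other strand, and of the 1593 exonic bases of *dpy-10*, 780 overlap *T14B4.19* on the same strand. The strand setting of the counting is not given in the sources used here, so reads in the stretch of *dpy-8* cannot be told apart. *C31H2.14* was listed at 1.90 to 5.04 FPKM over the libraries. Strand would not separate *dpy-10* from *T14B4.19*, which has no entry in the table.

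The members fell into 2 levels in every genotype: *dpy-2*, *dpy-3*, *dpy-7* and *dpy-10* were well expressed, while *dpy-8* and *dpy-9* were low. *dpy-8* was close to the limit of 0.5 FPKM used for testing, and *dpy-9* lay above it in every library, at 0.874 to 2.02 FPKM. By mean FPKM the order was *dpy-10*, *dpy-7*, *dpy-3*, *dpy-2*, *dpy-9* and *dpy-8* in all 3 genotypes. In *daf-1*, *dpy-10* averaged 55.0 ± 6.61 FPKM (SD, n = 3), above 80.6% of the 13907 entries that could be tested, and *dpy-8* averaged 0.824 ± 0.106 FPKM, above 11.6% of them. In *daf-1*; *daf-3* replicates 1 and 2, *dpy-10* averaged 14.7 ± 2.62 FPKM (SD, n = 2), above 57.7% of entries, and *dpy-8* averaged 0.548 ± 0.221 FPKM, above 13.3%. In N2, *dpy-10* averaged 48.9 ± 17.9 FPKM (SD, n = 3), above 77.0% of entries, and *dpy-8* averaged 0.517 ± 0.0812 FPKM, above 10.4%. Neighbours among the first 4 overlapped in range in each genotype, except *dpy-3* and *dpy-2* in *daf-1*. *dpy-2* and *dpy-9*, and *dpy-9* and *dpy-8*, did not overlap in any.

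*dpy-7*, whose protein is the usual antibody marker of furrows, had 47.4, 54.7 and 54.2 FPKM in *daf-1* replicates 1, 2 and 3. It had 8.66, 12.8 and 65.2 FPKM in *daf-1*; *daf-3*, and 30.5, 37.5 and 66.9 FPKM in N2. Replicates 1 and 2 of the double mutants were thus the 2 lowest of the 9 libraries, N2 replicates 1 and 2 came next, and the replicate 3 libraries of the double mutants and of N2 were the highest.

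*dpy-3*, another collagen needed for furrows, followed the same order. It had 46.2, 53.6 and 49.9 FPKM in *daf-1*, 8.30, 11.3 and 64.7 FPKM in *daf-1*; *daf-3*, and 31.1, 35.5 and 62.1 FPKM in N2. The *daf-1* libraries lay close together, and both other genotypes held 2 low libraries and 1 high one.

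*dpy-10*, widely used as a visible marker in genome editing, had 47.4, 57.9 and 59.7 FPKM in *daf-1*. It had 12.8, 16.5 and 65.5 FPKM in *daf-1*; *daf-3*, and 37.7, 39.4 and 69.5 FPKM in N2. *dpy-2*, which lies close to it, had 34.1, 38.9 and 45.3 FPKM in *daf-1*, 6.66, 11.04 and 47.5 FPKM in *daf-1*; *daf-3*, and 23.8, 25.1 and 49.2 FPKM in N2. For both genes, *daf-1* and N2 overlapped in range, and the double mutants without replicate 3 lay below every other library.

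*dpy-9* and *dpy-8*, which are also needed for furrows, did not share this order. *dpy-9* had 1.61, 1.59 and 1.65 FPKM in *daf-1*, 1.09, 1.28 and 0.874 FPKM in *daf-1*; *daf-3*, and 2.02, 2.01 and 1.69 FPKM in N2. The 3 genotypes did not overlap, with N2 at the top and the double mutants at the bottom, and replicate 3 of the double mutants was the lowest library of all. *dpy-8* had 0.717, 0.929 and 0.825 FPKM in *daf-1*, 0.391, 0.704 and 0.515 FPKM in *daf-1*; *daf-3*, and 0.609, 0.488 and 0.454 FPKM in N2. Here *daf-1* was above the overlapping ranges of the other genotypes.

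**Figure D1:**
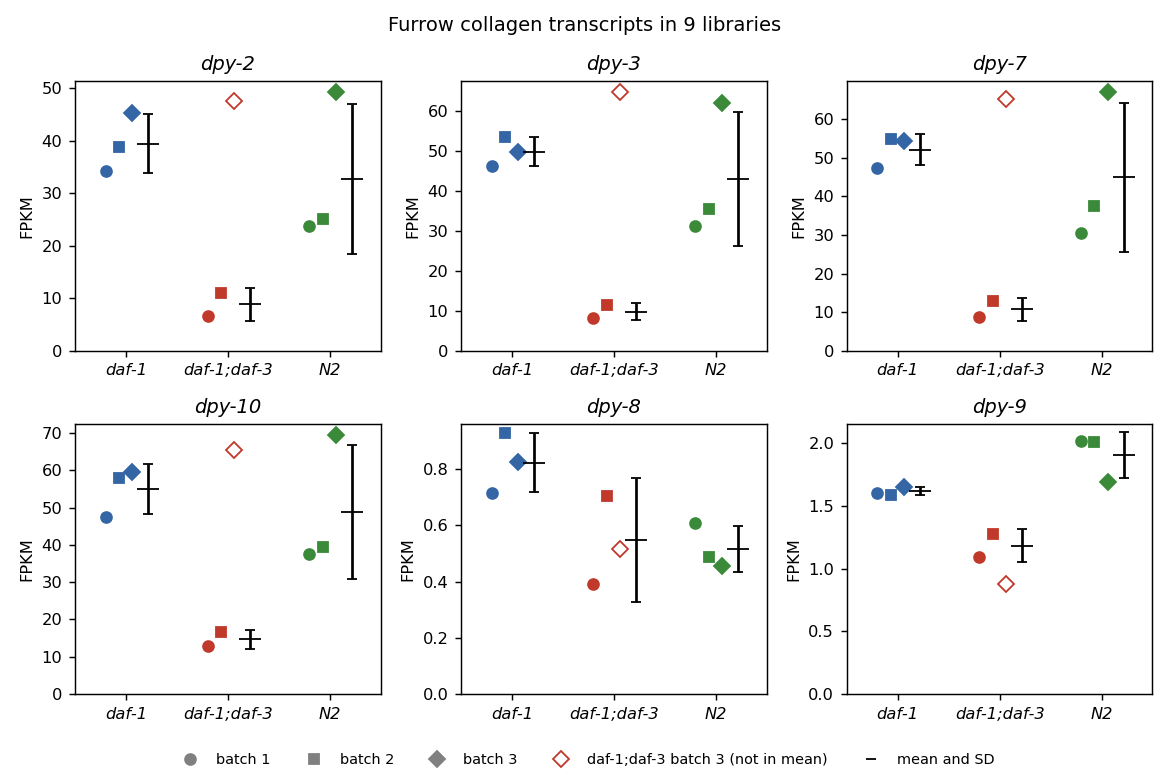
FPKM (vertical axes, from 0) of the 6 furrow collagens in the 9 libraries, by genotype along the horizontal axes and by batch as the shape of the point, with mean and SD (n = 3, or n = 2 for *daf-1*; *daf-3*, whose open diamond is replicate 3 and is not in the mean). For *dpy-7* the filled double mutant points sit at 8.66 and 12.8 FPKM, below all other libraries, and the open diamond at 65.2 FPKM, while *dpy-8* and *dpy-9* stay near or below 2 FPKM.

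The 4 well-expressed members moved as 1 unit across libraries. Over the 9 libraries, Pearson's r of log2(FPKM + 0.25) was between 0.991 and 0.998 in the 6 pairs among them, 0.295 to 0.347 between *dpy-8* and each of them, and 0.251 to 0.268 between *dpy-9* and each of them. These correlations are descriptions, since all genes in a library share its depth and its mix of tissues and embryos. The summed level of the 4 genes was 175, 205 and 209 FPKM in *daf-1*, 36.4, 51.7 and 243 FPKM in *daf-1*; *daf-3*, and 123, 138 and 248 FPKM in N2. Within that sum the shares changed little: *dpy-2* made up 18.3% to 21.7%, *dpy-3* 21.9% to 26.6%, *dpy-7* 23.8% to 27.3% and *dpy-10* 26.96% to 35.1%. The highest share of *dpy-10* was that in *daf-1*; *daf-3* replicate 1, the library with the lowest sum.

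The comparison of *daf-1* mutants with N2 asks what loss of the receptor does to these genes. None of the furrow collagens passed the test between *daf-1* and N2. The log2 difference of *daf-1* minus N2 was 0.34 for *dpy-2* (95% interval −0.32 to 0.997), 0.28 for *dpy-3* (−0.26 to 0.82), 0.29 for *dpy-7* (−0.32 to 0.90), 0.22 for *dpy-10* (−0.30 to 0.74), 0.49 for *dpy-8* (−0.12 to 1.097) and −0.20 for *dpy-9* (−0.64 to 0.24). Adjusted p-values in limma were between 0.18 for *dpy-8* and 0.47 for *dpy-10*, and none of the 6 had an unadjusted p under 0.05. Here and below, a gene is called a DEG when it differed at least 2-fold with an adjusted p under 0.05 over all tested entries. Of the 13751 entries tested, 6.27% were DEGs that were higher in *daf-1*, and 0.953% DEGs that were lower, and with 9 libraries 4.61% were DEGs in either direction, again with no furrow collagen among them. The median log2 difference was 0.28 over the 6 genes and 0.02 over all entries.

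The differences between *daf-1* and N2 were also taken within each batch, which has 1 library per genotype and so no test. Within batch 1, *daf-1* minus N2 was 0.52 for *dpy-2*, 0.57 for *dpy-3*, 0.63 for *dpy-7* and 0.33 for *dpy-10*, and within batch 2 it was 0.62, 0.59, 0.54 and 0.55 for the same genes in this order. Within batch 3 it was −0.12, −0.32, −0.30 and −0.22. In a model with a batch 3 term for each genotype, the batch 3 term of N2 minus that of *daf-1* was 0.69, 0.89, 0.89 and 0.66 on the log2 scale. This difference between batch 3 terms did not pass an adjusted p of 0.05 in limma for any of these genes. Without N2 replicate 3 the 4 genes had log2 differences of 0.67 for *dpy-2*, 0.58 for *dpy-3*, 0.62 for *dpy-7* and 0.50 for *dpy-10*, with adjusted p-values of 0.039, 0.022, 0.03 and 0.03 in limma. These stayed under 2-fold, and 18.4% of all entries passed an adjusted p of 0.05 as higher in *daf-1* in that fit.

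The comparison of *daf-1* mutants with double mutants asks which genes depend on *daf-3* once *daf-1* is lost. *dpy-2*, *dpy-3*, *dpy-7* and *dpy-10* were higher in *daf-1* than in *daf-1*; *daf-3* replicates 1 and 2, and these were the 4 DEGs among the 6 genes. By mean FPKM the ratio of *daf-1* to *daf-1*; *daf-3* was 4.46 for *dpy-2*, 5.08 for *dpy-3*, 4.86 for *dpy-7* and 3.75 for *dpy-10*. The log2 difference was 2.33 for *dpy-3* (SE 0.266, adjusted p = 0.00236 in limma), 2.28 for *dpy-7* (SE 0.298, adjusted p = 0.00342), 2.16 for *dpy-2* (SE 0.322, adjusted p = 0.00461) and 1.89 for *dpy-10* (SE 0.254, adjusted p = 0.00383). Among all entries tested, 11.2% were DEGs that were higher in *daf-1* and 1.43% DEGs that were lower. *dpy-8* differed by 0.45 (95% interval −0.23 to 1.13, adjusted p = 0.26) and *dpy-9* by 0.38 (−0.11 to 0.88, adjusted p = 0.19), and both values were negative after quantile normalization, at −0.16 for *dpy-8* and −0.20 for *dpy-9*. The median over the 6 genes was 2.03, against 0.00 over all entries.

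Replicate 3 of the double mutants decided this call. With all 9 libraries the log2 differences were 1.35 for *dpy-2*, 1.43 for *dpy-3*, 1.41 for *dpy-7* and 1.18 for *dpy-10*, each with an adjusted p of 0.25 in limma. In that fit 1.17% of entries were DEGs, none of the 6 genes was one, and only *dpy-9* had an unadjusted p under 0.05. With batch as a block as well, unadjusted p-values in limma were 0.013 for *dpy-2*, 0.024 for *dpy-3*, 0.019 for *dpy-7* and 0.015 for *dpy-10*. Their adjusted p-values were 0.10 to 0.11, and 4726 of 13907 entries had an unadjusted p under 0.05. Within batches 1 and 2, *daf-1* minus *daf-1*; *daf-3* was between 1.79 and 2.44 for the 4 genes. Within batch 3 it was −0.07 for *dpy-2*, −0.37 for *dpy-3*, −0.27 for *dpy-7* and −0.13 for *dpy-10*. When batch 3 was left out for all genotypes, the 4 genes remained DEGs, among 9.34% of entries that were higher in *daf-1*.

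The comparison of double mutants with N2 shares the double mutant libraries with the one above, so the 2 are not independent. The same 4 genes were lower in *daf-1*; *daf-3* replicates 1 and 2 than in N2. In log2 units, *dpy-3* fell by 2.05 (SE 0.266, adjusted p = 0.0019 in limma), *dpy-7* by 1.99 (SE 0.298, adjusted p = 0.00361), *dpy-2* by 1.82 (SE 0.322, adjusted p = 0.00732) and *dpy-10* by 1.67 (SE 0.254, adjusted p = 0.00379). Of all entries tested, 5.34% were DEGs that were lower in the double mutants and 3.56% DEGs that were higher. *dpy-9* differed by −0.59 (95% interval −1.08 to −0.10, adjusted p = 0.10), and was lower in the double mutant of each of the 3 batches, by −0.76, −0.56 and −0.79. After TPM scaling it differed by −0.81 (adjusted p = 0.037 in limma), under 2-fold. In that fit 2525 of 13751 entries passed an adjusted p of 0.05 as lower in the double mutants. *dpy-8* differed by 0.03 (−0.65 to 0.72, adjusted p = 0.96), a value whose sign changed with the TPM scaling (−0.14). The median over the 6 genes was −1.75, against 0.02 over all entries.

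As above, the calls rested on the first 2 replicates of the double mutants. With 9 libraries the log2 differences were −1.01 for *dpy-2*, −1.15 for *dpy-3*, −1.12 for *dpy-7* and −0.96 for *dpy-10*, and none of the 6 genes was a DEG, against 2.84% of entries, while *dpy-9* (−0.70) had the only unadjusted p under 0.05. With batch as a block as well, unadjusted p-values in limma were 0.043, 0.055, 0.047 and 0.035 for *dpy-2*, *dpy-3*, *dpy-7* and *dpy-10*. Their adjusted p-values were 0.20 to 0.25, and 2966 of 13907 entries had an unadjusted p under 0.05. Within batch 3, *daf-1*; *daf-3* minus N2 was −0.05, 0.06, −0.04 and −0.09 for *dpy-2*, *dpy-3*, *dpy-7* and *dpy-10*. Without batch 3 the 4 genes remained DEGs, among 3.49% of entries that were lower in the double mutants.

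**Figure D2:**
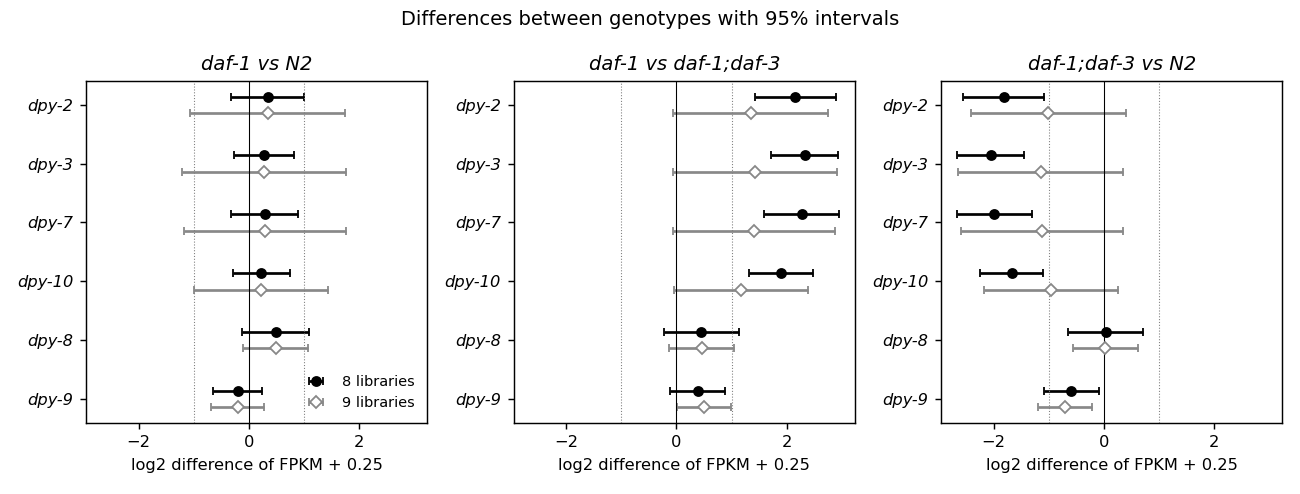
Log2 differences of FPKM + 0.25 (horizontal axes) with 95% intervals for the 6 genes (rows) in the 3 comparisons between genotypes, with 8 libraries (filled circles) and with 9 (open diamonds); dotted lines mark 2-fold. For *dpy-3* the difference of *daf-1* minus *daf-1*; *daf-3* is 2.33 with 8 libraries and 1.43 with 9, where its interval reaches below 0.

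Batch 3 was compared with batches 1 and 2 because each batch holds 1 library of every genotype. In *daf-1* the batch 3 library was 1.24 times the mean of the others for *dpy-2*, 0.999 times for *dpy-3*, 1.06 times for *dpy-7* and 1.13 times for *dpy-10*. In *daf-1*; *daf-3* these ratios were 5.37, 6.59, 6.08 and 4.47 for the same genes, and in N2 they were 2.01, 1.86, 1.97 and 1.80. Over all 9 libraries, with genotype in the model, batch 3 exceeded the other batches by 1.25 for *dpy-2*, 1.20 for *dpy-3*, 1.22 for *dpy-7* and 1.06 for *dpy-10* on the log2 scale, with adjusted p-values of 0.10 to 0.12 in limma. All 4 had an unadjusted p under 0.05, as did 4433 of 13907 entries, of which 3 were DEGs (0.0216%). *dpy-8* (−0.07) and *dpy-9* (−0.17) did not share the difference.

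The batch difference was also fitted without single batch 3 libraries. Without *daf-1* replicate 3, the 4 genes were DEGs that were higher in batch 3, by 1.72 for *dpy-2*, 1.80 for *dpy-3*, 1.79 for *dpy-7* and 1.5 for *dpy-10*, each with an adjusted p of 0.043 in limma, among 6.97% of entries. Without *daf-1*; *daf-3* replicate 3 the values were 0.66, 0.45, 0.53 and 0.52 for these genes. A model with a batch 3 term for each genotype, chosen after the data were seen, gave 0.31 for *dpy-2*, 0.00 for *dpy-3*, 0.09 for *dpy-7* and 0.19 for *dpy-10* in *daf-1*. It gave 2.44, 2.71, 2.60 and 2.15 for these genes in *daf-1*; *daf-3*, and 1.001, 0.90, 0.98 and 0.85 in N2. The difference of this term between double mutants and *daf-1* passed an adjusted p of 0.05 for *dpy-3* and *dpy-10*, as it did with at least a 2-fold difference in 1.04% of entries. Between double mutants and N2 it was 1.43 for *dpy-2*, 1.81 for *dpy-3*, 1.62 for *dpy-7* and 1.31 for *dpy-10*, with adjusted p-values of 0.18 to 0.28, which did not pass. In this model the spread comes only from replicates 1 and 2, and the lone batch 3 library of each genotype is assumed to vary like them.

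**Figure D3:**
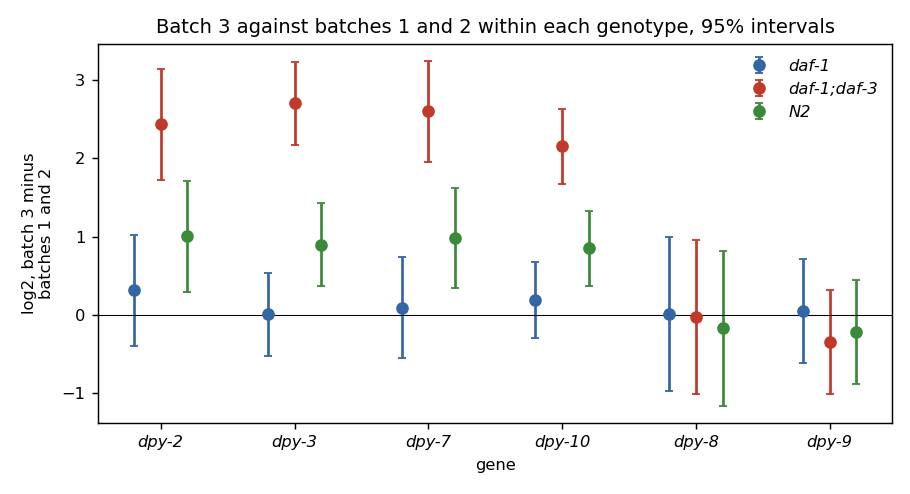
Log2 difference of batch 3 minus batches 1 and 2 (vertical axis) with 95% intervals for each of the 6 genes (horizontal axis), in *daf-1*, *daf-1*; *daf-3* and N2. The double mutants are at 2.15 to 2.71 for *dpy-2*, *dpy-3*, *dpy-7* and *dpy-10*, beside 0.00 to 0.31 in *daf-1* and 0.85 to 1.001 in N2, from which the double mutants did not differ at an adjusted p of 0.05, while all genotypes are near 0 for *dpy-8*.

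Other collagens that shape the body were set beside the furrow collagens. Of 15 such genes listed, 14 had an entry and were tested. Between *daf-1* and *daf-1*; *daf-3*, 13 of 14 were DEGs that were higher in *daf-1* (7 after quantile normalization, 7 with batches 1 and 2 only and 0 with 9 libraries), with a median log2 difference of 2.18. Between *daf-1* and N2, 9 of 14 were DEGs that were higher in *daf-1* (8 with 9 libraries, 5 with batches 1 and 2 only, and 8 with *rol-8* as a DEG that was lower after quantile normalization), with a median of 1.84, where the furrow collagens had none. Of these 9, *sqt-1*, *rol-6*, *bli-1* and *bli-2* were under 0.5 FPKM in every N2 library. They passed the filter only through mutant libraries, so their calls against N2 carry little weight. *rol-6* was under 0.5 FPKM in every double mutant library as well. Between double mutants and N2, 4 of 14 were DEGs that were lower (1 with 9 libraries), with a median of 0.08.

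Inside this list 3 genes followed the pattern of the 4 furrow collagens. *dpy-17*, needed for normal body length, had 347, 409 and 421 FPKM in *daf-1*, 76.5, 89.6 and 530 FPKM in *daf-1*; *daf-3*, and 229, 276 and 444 FPKM in N2. *sqt-3*, a collagen made at every molt, had 576, 731 and 765 FPKM in *daf-1*, 103, 130 and 1033 FPKM in *daf-1*; *daf-3*, and 323, 415 and 790 FPKM in N2. The values of *dpy-14*, another Dumpy collagen gene, ran in the same way, between 95.9 FPKM in *daf-1*; *daf-3* replicate 1 and 565 FPKM in replicate 3. Pearson's r with the mean profile of *dpy-2*, *dpy-3*, *dpy-7* and *dpy-10* over the 9 libraries was 0.994 for *dpy-17*, 0.995 for *dpy-14* and 0.990 for *sqt-3*. None of these 3 was a DEG between *daf-1* and N2, with log2 differences of 0.36, 0.27 and 0.54.

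The other members of the list took different courses, and their r with the 4 furrow collagens was graded. It was 0.785 for *lon-3*, 0.627 for *sqt-2* and 0.371 for *dpy-5*, with the rest lower, down to 0.015 for *bli-1*. *dpy-13* had 14.1, 12.05 and 7.61 FPKM in *daf-1*, 0.290, 4.98 and 0.734 FPKM in *daf-1*; *daf-3*, and 0.595, 0.966 and 0.588 FPKM in N2. Here all *daf-1* libraries exceeded all others, and replicate 2 of the double mutants was the highest outside *daf-1*. The log2 difference of *dpy-13* for *daf-1* minus N2 was 3.55 (SE 0.698, adjusted p = 0.011 in limma), and its r with the 4 furrow collagens was 0.252. For *rol-8* the double mutants were lowest in all 3 replicates, with 2.78, 3.79 and 2.87 FPKM in *daf-1*, 0.782, 1.46 and 0.444 FPKM in *daf-1*; *daf-3*, and 7.16, 7.09 and 3.56 FPKM in N2. It was the only gene of the list that was a DEG between double mutants and N2 with 9 libraries as well. The 3 adult collagens *col-7*, *col-19* and *col-62* were all DEGs with higher values in *daf-1* than in N2, though only *col-62* was with 9 libraries. Of these, *col-7* was under 0.5 FPKM in every N2 library, so it passed the filter only through mutant libraries. *col-19*, the standard marker of the adult epidermis, had 1744, 1986 and 1350 FPKM in *daf-1*, 1801, 2991 and 731 FPKM in *daf-1*; *daf-3*, and 954, 748 and 571 FPKM in N2.

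**Figure D4:**
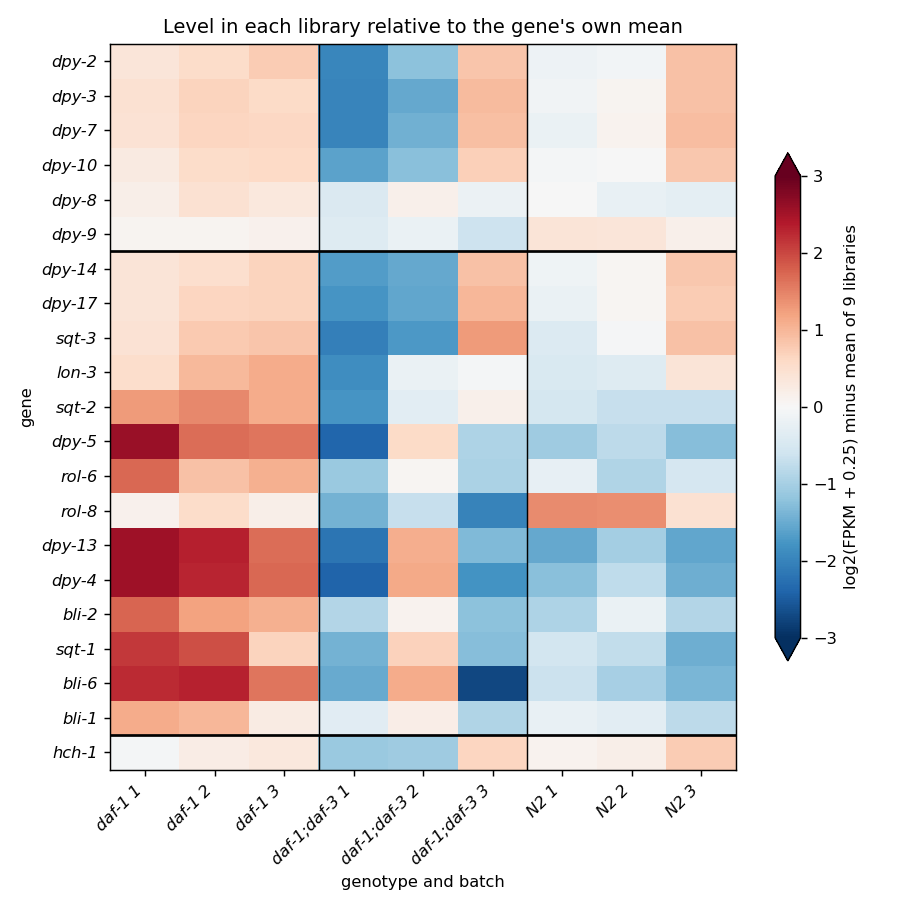
Level of each gene (rows) in each library (columns, by genotype and batch) as log2(FPKM + 0.25) minus the mean of the gene over the 9 libraries, red above and blue below that mean, for the 6 furrow collagens, 14 other body-shape collagens and the hatching protease gene *hch-1*. *dpy-2*, *dpy-3*, *dpy-7*, *dpy-10*, *dpy-14*, *dpy-17* and *sqt-3* are blue in *daf-1*; *daf-3* replicates 1 and 2 and red in replicate 3, while *dpy-13* is red in all 3 *daf-1* libraries.

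Genes of the molt and of the precuticle, the temporary matrix that precedes each cuticle, gave similar counts. Of 14 tested, 8 were DEGs that were higher in *daf-1* than in *daf-1*; *daf-3*, 9 were DEGs that were lower in the double mutants than in N2, and none was a DEG between *daf-1* and N2, where *nas-37* passed the adjusted p (0.0313 in limma) with a difference of 0.62. With 9 libraries none was a DEG in any comparison. *lpr-3*, a lipocalin of the precuticle, had 57.2, 68.1 and 69.1 FPKM in *daf-1*, 11.7, 14.7 and 83.6 FPKM in *daf-1*; *daf-3*, and 39.7, 47.2 and 83.2 FPKM in N2. Its r with the 4 furrow collagens was 0.998, and its log2 difference of *daf-1* minus *daf-1*; *daf-3* was 2.28 (SE 0.272, adjusted p = 0.0026 in limma). *noah-2*, a zona pellucida domain protein of the apical matrix whose entry is joined with a small RNA gene, had a log2 difference of 1.51, *mlt-8* one of 1.86, and *mlt-11*, which encodes a protease inhibitor and is joined with 2 other genes, one of 1.81. The astacin protease genes *nas-36* and *nas-37*, which act in shedding the old cuticle, had r values of 0.12 and −0.07.

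Transcription factors of the epidermis and of molting divided in a like manner. Of 12 listed, 10 were tested, of which 4 were DEGs that were higher in *daf-1* than in *daf-1*; *daf-3*, 4 were DEGs that were lower in the double mutants than in N2, and none was a DEG between *daf-1* and N2. With 9 libraries none was a DEG. *grh-1*, the Grainyhead factor of epidermal barriers, had 15.4, 15.6 and 18.3 FPKM in *daf-1*, 2.23, 3.02 and 21.2 FPKM in *daf-1*; *daf-3*, and 8.76, 8.86 and 19.4 FPKM in N2, with an r of 0.994 with the 4 furrow collagens. *blmp-1*, a zinc finger factor that paces molting-cycle genes, had 16.96, 17.1 and 17.8 FPKM in *daf-1*, 4.15, 6.29 and 20.0 FPKM in *daf-1*; *daf-3*, and 13.4, 12.1 and 21.0 FPKM in N2. *lin-42*, the worm period homolog, was higher in *daf-1* than in *daf-1*; *daf-3* by 1.66 (SE 0.216, adjusted p = 0.00335 in limma). *nhr-23*, a nuclear receptor required for molting, stayed at 35.2 to 39.6 FPKM in *daf-1*, 37.9 to 40.3 FPKM in *daf-1*; *daf-3* and 43.4 to 46.7 FPKM in N2. Its r was −0.02, and its log2 differences were −0.30 for *daf-1* minus N2, under 2-fold (SE 0.0798, adjusted p = 0.0271 in limma), and −0.08 for *daf-1* minus *daf-1*; *daf-3*.

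Genes for the processing and cross-linking of collagens were also set beside the members. Of 12 tested, 1 was a DEG between *daf-1* and *daf-1*; *daf-3*, the protease inhibitor gene *bli-5*, which was lower in *daf-1* (−1.14), and it was also the only DEG between *daf-1* and N2 (−1.13). *bli-5* had 0.149, 0.247 and 0.443 FPKM in *daf-1*, 0.999, 0.784 and 0.787 FPKM in *daf-1*; *daf-3*, and 0.729, 1.18 and 0.784 FPKM in N2. All its *daf-1* values were under 0.5 FPKM, so it passed the filter only through the other genotypes. Between double mutants and N2 the only DEG was *phy-3*, a prolyl 4-hydroxylase gene, which was higher in the double mutants. With 9 libraries the call of *bli-5* against N2 was kept, and the other 2 calls were lost. The *phy-3* call was also lost with batches 1 and 2 only. After scaling to TPM, *mlt-7* and *doxa-1* were DEGs that were higher in *daf-1* than in *daf-1*; *daf-3* in place of *bli-5*, and *mlt-7* was one that was lower in double mutants than in N2 in place of *phy-3*. *dpy-18*, the main prolyl 4-hydroxylase subunit, had 48.4, 50.9 and 48.1 FPKM in *daf-1*, 34.1, 40.3 and 52.9 FPKM in *daf-1*; *daf-3*, and 43.2, 43.9 and 56.0 FPKM in N2.

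Damage to furrows is known to switch on osmotic, detoxification and antimicrobial genes, and 9 of these were tested. Between *daf-1* and N2, 4 were DEGs that were higher in *daf-1* (*nlp-29*, *nlp-30*, *nlp-31* and *nlp-34*, all antimicrobial peptide genes of the epidermis), and 3 of them with 9 libraries. Between double mutants and N2, *nlp-29* and *nlp-31* were DEGs that were higher in the double mutants, with 8 and with 9 libraries. *nlp-29* had 42.5, 47.7 and 88.7 FPKM in *daf-1*, 92.4, 54.7 and 123 FPKM in *daf-1*; *daf-3*, and 11.2, 12.9 and 21.9 FPKM in N2, so that both mutants lay above N2 in every library. The osmotic response gene *gpdh-1* had 4.09, 4.74 and 4.99 FPKM in *daf-1*, 2.43, 5.23 and 3.70 FPKM in *daf-1*; *daf-3*, and 1.85, 1.85 and 3.50 FPKM in N2, and was not a DEG between genotypes with 8 or with 9 libraries. *gst-4*, a glutathione S-transferase gene, was not a DEG in these fits, but after quantile normalization it was one, lower in *daf-1* than in N2 and than in *daf-1*; *daf-3*. Between *daf-1* and *daf-1*; *daf-3*, 1 of the 9 was a DEG, *nlp-30*, which was higher in *daf-1* by a log2 value of 1.26 (adjusted p = 0.0387 in limma), and 0 were with 9 libraries, where the value was 0.78 (adjusted p = 0.325).

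Some genes of embryos varied in the same way as the 4 furrow collagens, and others did not. In a list of 9 genes of mid and late embryos, chosen after the data were seen, 2 (*ceh-22* and *hch-1*) were DEGs that were higher in *daf-1* than in *daf-1*; *daf-3*, and the same 2 were DEGs that were lower in the double mutants than in N2. None was a DEG with 9 libraries. Of all entries, 11.2% were DEGs of the first kind and 5.34% of the second. Values of r with the 4 furrow collagens were 0.983 for *ceh-22*, 0.976 for *pha-4*, 0.961 for *hlh-1*, 0.959 for *hch-1* and 0.917 for *vab-7*. They were lower for *nob-1* (0.752, a joined entry), *elt-6* (0.603, also joined), *tbx-8* (0.585) and *tbx-9* (−0.635). The protease gene *hch-1*, which is needed for hatching, had 38.7, 47.3 and 49.9 FPKM in *daf-1*, 18.6, 19.1 and 62.8 FPKM in *daf-1*; *daf-3*, and 43.3, 45.8 and 68.8 FPKM in N2. The 7 genes of the list with an entry of their own summed to 139 to 156 FPKM in *daf-1*, to 105, 94.6 and 179 FPKM in *daf-1*; *daf-3* replicates 1, 2 and 3, and to 147 to 192 FPKM in N2, and none was at 0 in any library. In contrast, 5 markers of early embryos summed to 12.96 to 16.4 FPKM in *daf-1*, to 28.3, 19.7 and 15.8 FPKM in *daf-1*; *daf-3*, and to 19.6 to 25.3 FPKM in N2, with none at 0. Of these, *end-1* was a DEG with 8 libraries, lower in *daf-1* than in *daf-1*; *daf-3*, and 0 were with 9 libraries. After quantile normalization, 3 were DEGs that were lower in *daf-1* than in *daf-1*; *daf-3* (*end-1*, *tbx-37* and *tbx-38*) and 3 that were lower than in N2 (*end-1*, *end-3* and *tbx-38*). The epidermal factor gene *elt-3* had 34.8, 46.6 and 41.0 FPKM in *daf-1*, 22.1, 27.3 and 46.5 FPKM in *daf-1*; *daf-3*, and 34.5, 39.8 and 43.9 FPKM in N2. Its r with the 4 furrow collagens was 0.957, but the epidermis markers *lin-26* (a joined entry), *bli-1* and *col-19* had 0.356, 0.015 and −0.580. Summed, *elt-3*, *bli-1* and *col-19* had 1392 to 2034 FPKM in *daf-1* and 615 to 988 FPKM in N2. In *daf-1*; *daf-3* replicates 1, 2 and 3 that sum was 1823, 3019 and 778 FPKM. The muscle myosin gene *myo-3* had 20.1, 22.6 and 29.7 FPKM in *daf-1*, 4.005, 9.28 and 31.6 FPKM in *daf-1*; *daf-3*, and 10.6, 10.5 and 18.2 FPKM in N2. It was 1 of 3 muscle markers and the one that was a DEG, higher in *daf-1* than in the double mutants, with 0 of 3 called with 9 libraries. The 3 muscle markers summed to 686 to 880 FPKM in *daf-1*, to 484, 840 and 758 FPKM in *daf-1*; *daf-3* replicates 1, 2 and 3, and to 418 to 465 FPKM in N2, with none at 0. Of 3 sperm markers tested, 2 (*spe-11* and *gsp-3*) were DEGs between *daf-1* and N2, with the higher level in *daf-1*, and 0 were with 9 libraries or after quantile normalization. The sperm markers with an entry of their own (*spe-11*, *gsp-3* and the untested *peel-1*) summed to 4.59 to 5.29 FPKM in *daf-1*, to 0.317, 4.66 and 0.576 FPKM in *daf-1*; *daf-3* replicates 1, 2 and 3, and to 0.186 to 1.68 FPKM in N2. *gsp-4*, whose joined entry is not in that sum, had 9.26 to 11.1 FPKM in *daf-1*, 6.91 to 8.11 FPKM in *daf-1*; *daf-3* and 7.53 to 7.76 FPKM in N2. The part of embryo number and stage, muscle and sperm in the furrow collagen values was not tested.

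The entries most like the members were found by Pearson's r over the 9 libraries among 12038 entries with 1 gene name. Against the mean standardised profile of all 6 members, the 10 highest were *fln-2* (r = 0.989), *ptr-14*, *B0284.3*, *Y39C12A.9*, *lin-10*, *C05C8.7*, *Y38H6A.5*, *R57.2*, *klp-3* and *R09F10.5* (r = 0.964), and 36 entries exceeded 0.95. *fln-2*, a filamin gene, had 25.6, 27.1 and 30.6 FPKM in *daf-1*, 8.20, 11.96 and 23.2 FPKM in *daf-1*; *daf-3*, and 23.9, 19.8 and 28.6 FPKM in N2. Against the profile of *dpy-2*, *dpy-3*, *dpy-7* and *dpy-10* alone, picked with the values in view, 570 entries (4.74%) exceeded 0.95. The 10 highest were then *lpr-4* (r = 0.999), *T03G6.1*, *lpr-3*, *gei-13*, *rga-2*, *col-121*, *H42K12.3*, *C14F11.6*, *F43D9.1* and *lpr-5* (r = 0.997), of which *lpr-3*, *lpr-4* and *lpr-5* encode lipocalin-related proteins and *col-121* a collagen. The 2 sets of 10 shared 0 genes. *lpr-4* had 29.6, 34.5 and 35.98 FPKM in *daf-1*, 3.38, 5.53 and 41.6 FPKM in *daf-1*; *daf-3*, and 17.01, 18.4 and 41.4 FPKM in N2.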

How the data were processed

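Poly(A) RNA of 9 whole-worm libraries was sequenced. The authors trimmed reads with Trim Galore 0.4.0, aligned them to WBcel235 with TopHat2 2.0.12 and estimated FPKM with Cufflinks, and the deposited FPKM values were used as given. Of 40313 entries, 4882 join several genes and 186 carry no gene name (0.0502% to 0.257% of FPKM). The joined entries took part in the tests, and the unnamed ones were left out of them. Gene positions came from the Ensembl annotation of WBcel235.

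Values were compared as log2(FPKM + 0.25) in limma 3.58.1 (R 4.3.3) with a variance trend and Benjamini-Hochberg adjustment over all entries with a gene name and at least 0.5 FPKM in 2 fitted libraries. The pseudocount understates changes of low genes. All 3 genotypes were fitted together, without *daf-1*; *daf-3* replicate 3. The batch comparison used all 9 libraries with genotype as a term. The test was tried on simulated data first. The study names the replicates as batches. Deviations from genotype means correlated at 0.0868 to 0.520 between same-numbered libraries and at −0.404 to 0.315 between others (9 libraries). Over the 8 libraries of the genotype tests these ranges were −0.0567 to 0.225 and −0.185 to 0.0643. A fit with batch as a block was an alternative. Others were pseudocount, filter, normalization, fold, library set and leaving out each replicate. Named genes were all 6 members, up to 4 per list with the smallest p, and the 10 most alike entries, with others added after their values were seen. Members and lists were chosen with earlier results of these data known.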

Additional observations from a re-analysis of the deposited data

Results flagged for a closer look

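The batch 3 term of *daf-1*; *daf-3* minus that of *daf-1* was a log2 value of 2.70 for *dpy-3* (SE 0.303, adjusted p = 0.0433 in limma) and 1.97 for *dpy-10* (SE 0.275, adjusted p = 0.0491). For *dpy-7* it was 2.51 (adjusted p = 0.0512) and for *dpy-2* 2.12 (adjusted p = 0.0693). The term was added to the model after the batch 3 values were known, and each genotype has 1 batch 3 library, which for *daf-1*; *daf-3* is the one the study removed. The values therefore describe these libraries and are no independent support for a difference between genotypes.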

How the results depend on the processing

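FPKM carry no depth, and 2 or 3 libraries per genotype limit the precision. Leaving out each replicate in turn kept 0 furrow collagens called between *daf-1* and N2, 4 between *daf-1* and *daf-1*; *daf-3*, and 4 between double mutants and N2. The batch comparison called 0 of them in these fits, except 4 without *daf-1* replicate 3. With all 9 libraries, with or without the replicate block, the counts of 4 became 0. With the replicate block on 8 libraries they stayed 0, 4 and 4, and the block changed no other call of a member. The difference of *dpy-8* between double mutants and N2 was −0.14 after TPM scaling, −0.025 with batches 1 and 2 only (added after seeing the data), and −0.25 to 0.32 when each replicate was left out. The batch 3 difference of *dpy-8* was 0.047 after TPM scaling and −0.14 to 0.028 when each replicate was left out. Between *daf-1* and *daf-1*; *daf-3*, quantile normalization gave −0.16 for *dpy-8* and −0.20 for *dpy-9*. The cause of these changes was not tested.

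Counts of DEGs over all entries were 993 between *daf-1* and N2, 1740 between *daf-1* and *daf-1*; *daf-3*, and 1224 between double mutants and N2. For these comparisons in this order, 9 libraries gave 641, 163 and 395, 9 libraries with the block gave 792, 205 and 434, and no minimum fold gave 3927, 5095 and 2254, while a pseudocount of 1 gave 1153 in the second. Leaving out 1 replicate gave 620 to 1377, 593 to 2052 and 825 to 1374, with the lowest counts without N2 replicate 2, without *daf-1*; *daf-3* replicate 1 and without *daf-1*; *daf-3* replicate 2. For the batch comparison it gave 0 to 989, against 3. Higher and lower DEGs split into 862 and 131 between *daf-1* and N2, but 561 and 356 after quantile normalization, and into 1543 and 197 between *daf-1* and *daf-1*; *daf-3*, but 867 and 538 after it. Between double mutants and N2 they split into 490 and 734, but 363 and 1133 after TPM scaling, which moved the median of all entries to −0.22, and to 0.24 for *daf-1* minus *daf-1*; *daf-3*.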
